A study of Mus musculus with 18 samples.

Results

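Expression of 10 genes of the interleukin-1 (IL-1) and IL-36 families was followed in mouse epidermal cells with or without tristetraprolin (TTP), from mock-treated skin to papillomas. The genes were Il1a, Il1b, Il1rn, Il1f6, Il1f8, Il1f9, Il18, Il33, Il1r2 and Il1rap. They were taken by name from a table of 52636 genes, and each name belonged to 1 gene ID. The table writes the IL-36 genes Il36a, Il36b and Il36g under their older names Il1f6, Il1f8 and Il1f9.

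RNA-Seq compared Zfp36 fl/fl mice with littermates that lost Zfp36, the gene of TTP, in keratinocytes (Zfp36 ΔK14 in the labels, ΔEP here). All mice were on a C57BL/6 background and carried loxP-flanked Zfp36 alleles, and ΔEP mice also carried a Cre driven by the human keratin 14 promoter, so cells that never used this promoter kept the gene. Young adult mice were either mock treated or given the mutagen DMBA followed by repeated TPA, a phorbol ester that promotes tumors. Cells came from mock skin, from nontumoral DMBA/TPA skin next to tumors (treated) and from papillomas (tumor). The labels name whole skin as the source and keratinocytes as the cell type, whereas the methods describe epidermal cells sorted as EpCAM+ and negative for CD45, CD140a and CD31. The table has 18 columns, 3 for each group. In mock ΔEP skin the columns of replicates 2 and 3 held the same count for each of the 52636 genes and so entered as 1 library, giving n = 2 there and 17 libraries overall. The labels do not say whether replicates were separate animals, so the p-values below measure only the spread between these samples.

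IL-1α and IL-1β bind the IL-1 receptor, which signals through an accessory chain encoded by Il1rap. IL-1α is held in resting keratinocytes and released on damage, while IL-1β has to be cleaved by caspase-1 before it is active. Il1rn encodes the receptor antagonist, and Il1r2 encodes a decoy receptor that binds IL-1 without signalling. The IL-36 cytokines signal through their own receptor, encoded by Il1rl2, with the same accessory chain, and in skin they come mainly from keratinocytes. IL-33 is a nuclear alarmin of barrier epithelium that binds a receptor encoded by Il1rl1, and IL-18 is a further cytokine of the family that caspase-1 matures. TTP binds AU-rich elements (AREs) in the 3′ untranslated region (UTR) of an mRNA and speeds its decay.

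Total counts ran from 2808550 to 9617985 per library with a median of 5567614. Levels are given as CPM, read counts brought to a common library size with TMM scaling, and 3 counts were worth 0.289 to 1.5 CPM depending on the library. Zfp36 was 495 ± 301 CPM (SD, n = 3) in mock fl/fl cells and 27.9 ± 15 CPM (n = 2) in mock ΔEP cells, and in tumors it was 216 ± 35.0 and 13.8 ± 4.32 CPM (n = 3 each), with every ΔEP library below every fl/fl library of its stage. Krt14, a basal keratin, had group means of 2419 to 3322 CPM in mock and treated skin. In fl/fl and ΔEP tumors its means were 7890 and 11260 CPM. The summed level of 15 leukocyte markers was 5.90 to 20.8 CPM over the 17 libraries, with Ptprc, the gene of CD45, at most at 1.5 CPM. The 6 fibroblast markers summed to 375 to 1671 CPM in mock and treated skin and to 30.3 to 386 CPM in tumors. The smallest library was fl/fl tumor replicate 1, in which 19219 genes had a count, the fewest of all. Mock replicate 1 of each genotype stood apart from the other 3 mock libraries. The 7 markers of differentiated keratinocytes summed to 724 CPM in that of fl/fl and 612 CPM in that of ΔEP skin, against 5896 to 7901 CPM. The 9 keratinocyte markers summed to 5786 and 6310 CPM in the same order, against 20820 to 26030 CPM. The 4 melanocyte markers summed to 283 and 248 CPM, against 38.4 to 90.2 CPM.

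The gene loci and their AREs are given first, since AREs are the elements that TTP binds. In the GRCm38 (mm10) assembly, Il1f8, Il1f9, Il1f6 and Il1rn lie together on chromosome 2, from base 24153161 to base 24351494, all on the plus strand. Il1a (129299610 to 129309972) and Il1b (129364570 to 129371139) lie further along chromosome 2 on the minus strand. Il1r2 is on chromosome 1, Il18 on chromosome 9, Il1rap on chromosome 16 and Il33 on chromosome 19. The heptamer TATTTAT was searched on the sense strand of the longest annotated 3′ UTR of each gene, and 27.4% of 21062 genes with such a UTR held at least 1. Il1a and Il1b each held 3, a number of 2 or more being present in 10.4% of all genes, and Il1rap held 1. The other 7 genes held none, and no member held the nonamer made by a further T at each end of the heptamer, present in 7.58% of all genes. The pentamer ATTTA, which lies inside each heptamer and was found in 65.7% of all genes, occurred 9 times in Il1rap and not at all in Il1rn or Il1f9. The windows below show the 3′ UTR sequence, written as DNA on the sense strand from 5′ to 3′, with the heptamers in capitals, because they carry all the heptamers found in these genes.
Il1a, chr2:129300103-129300132, minus strand: tctatgTATTTATaaataTATTTATgataa
Il1a, chr2:129300079-129300108, minus strand: tgataattatatTATTTATggaacatcctt
Il1b, chr2:129364802-129364831, minus strand: cttaccTATTTATTTATgTATTTATtgatt
Il1rap, chr16:26728043-26728072, plus strand: atgagatgaggaTATTTATtaaactgatga
The 3 heptamers of Il1a started 585, 597 and 615 bases after the stop codon of a 1101-base UTR. Those of Il1b started at 204, 208 and 216 bases in a UTR of 459 bases, and the first 2 overlapped each other. The heptamer of Il1rap started at base 624 of 2686.

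**Figure D1:**
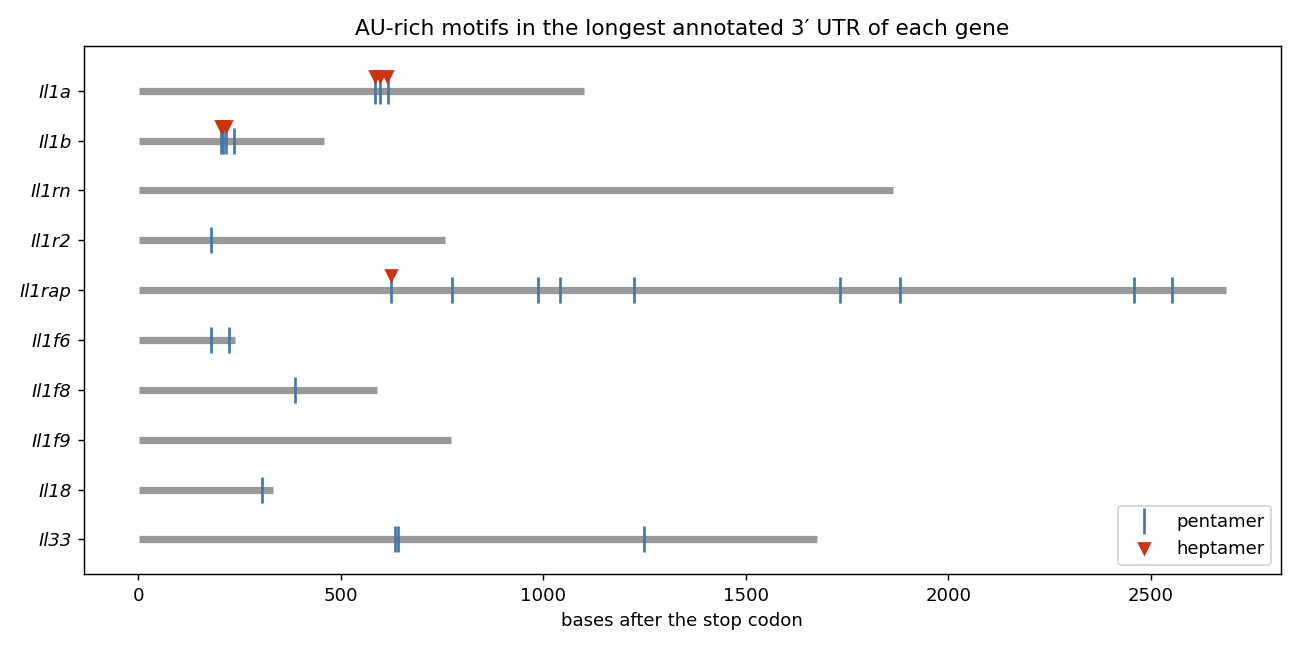
Positions of the heptamer TATTTAT (red triangles) and of the pentamer ATTTA (blue ticks) along the longest annotated 3′ UTR of each of the 10 genes (grey bars), in bases after the stop codon. Heptamers lie in Il1a (3, close together), Il1b (3, close together) and Il1rap (1), and Il1rn and Il1f9 hold neither motif.

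Promoters reaching from 250 bases before to 50 bases after the RefSeq transcription start (GRCm38.p6) were searched on both strands for the TPA response element TGANTCA, which binds AP-1, and for the κB motif (GGGA and TTCC with any 2 bases between them). The reverse complement of the first is the same motif. A TPA response element was present in 7.81% of 32851 promoters and a κB motif in 1.47%. Among the members with a promoter entry, a TPA response element was found in Il1a, Il1rn and Il1f8, and the κB motif in none. The windows below, with the match in capitals, show these because TPA was the promoting agent. A match describes letters only.
Il1a, chr2:129309967-129309996, minus strand: ggcagagaagccTGACTCAgacttaagtct
Il1rn, chr2:24336707-24336736, plus strand: cttctgctagacTGAGTCAcgcctctggaa
Il1f8, chr2:24152924-24152953, plus strand: agttctccaccaTGACTCAacttctaccct
The match began 12 bases before the start site in Il1a, 141 before 1 of 3 annotated starts of Il1rn and 236 before that of Il1f8, that is at positions -12, -141 and -236.

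Before any comparison, the members differed widely in how often they were seen. Il1rn, Il33 and Il1rap were counted in all 17 libraries, with sums over the libraries of 7598, 7395 and 4270 counts, as were Il1a (2634) and Il1r2 (1988). Il1f9 summed to 2172 counts and was at 3 or fewer in 2 libraries. Near zero were Il1b, Il1f6 and Il1f8: Il1b was at 3 counts or fewer in 10 of 17 libraries and never above 9 counts, Il1f6 in 12 of 17 and never above 22, and Il1f8 in 8 of 17 and never above 41. A group was taken as near zero when all its libraries held at most 3 counts. This was so for Il1b in mock ΔEP and tumor fl/fl cells, for Il1f6 in 4 groups (mock of both genotypes, treated fl/fl and tumor fl/fl) and for Il1f8 in mock cells of both genotypes. Il18 was low, with 0 to 8 counts in mock libraries and at most 50 anywhere.

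Compared per kilobase of exon, so that genes of different length stand on 1 scale, Il33 had the highest mean of the 10 at every stage in fl/fl cells, while in ΔEP cells the highest mean was that of Il33 in mock skin, of Il1f9 in treated skin and of Il1a in tumors. In mock cells the mean of Il33 was 49.4 CPM per kb in fl/fl and 31.7 in ΔEP, followed by Il1r2 (23.1 and 19.9 CPM per kb) and Il1rn (14.9 and 10.3). Il1a was at 1.22 and 0.865 CPM per kb in the same groups. In mock replicate 1 of both genotypes the order was different, with Il1r2 above Il33 (3.71 against 3.07 CPM per kb in fl/fl and 5.51 against 3.18 in ΔEP), and without that replicate the ΔEP level of Il33 was 60.1 CPM per kb. In treated fl/fl cells the means were 11.7 CPM per kb for Il33, 10.5 for Il1r2 and 7.80 for Il1rn, and in treated ΔEP cells 11.2 for Il1f9, 10.6 for Il1rn and 10.2 for Il33. The libraries of these leading genes overlapped in both treated groups. In tumor fl/fl cells the order was Il33 (20.3), Il1f9 (18.3), Il1rn (13) and Il1a (10.3), and the libraries of these 4 genes overlapped too. In tumor ΔEP cells Il1a came first with a mean of 72.2 CPM per kb, followed by Il1f9 (55.5), Il33 (37.3) and Il1rn (29.5), and Il1r2 was last but 1, at 1.71. Each of these 4 leading genes overlapped its neighbour in the order over the 3 tumor ΔEP libraries, since Il1a ranged from 12.4 to 118 CPM per kb, Il1f9 from 47.7 to 68.0, Il33 from 16.9 to 67.1 and Il1rn from 17.6 to 40.2. Il1b was at 0.596 CPM per kb in tumor ΔEP cells, the lowest of the 10.

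**Figure D2:**
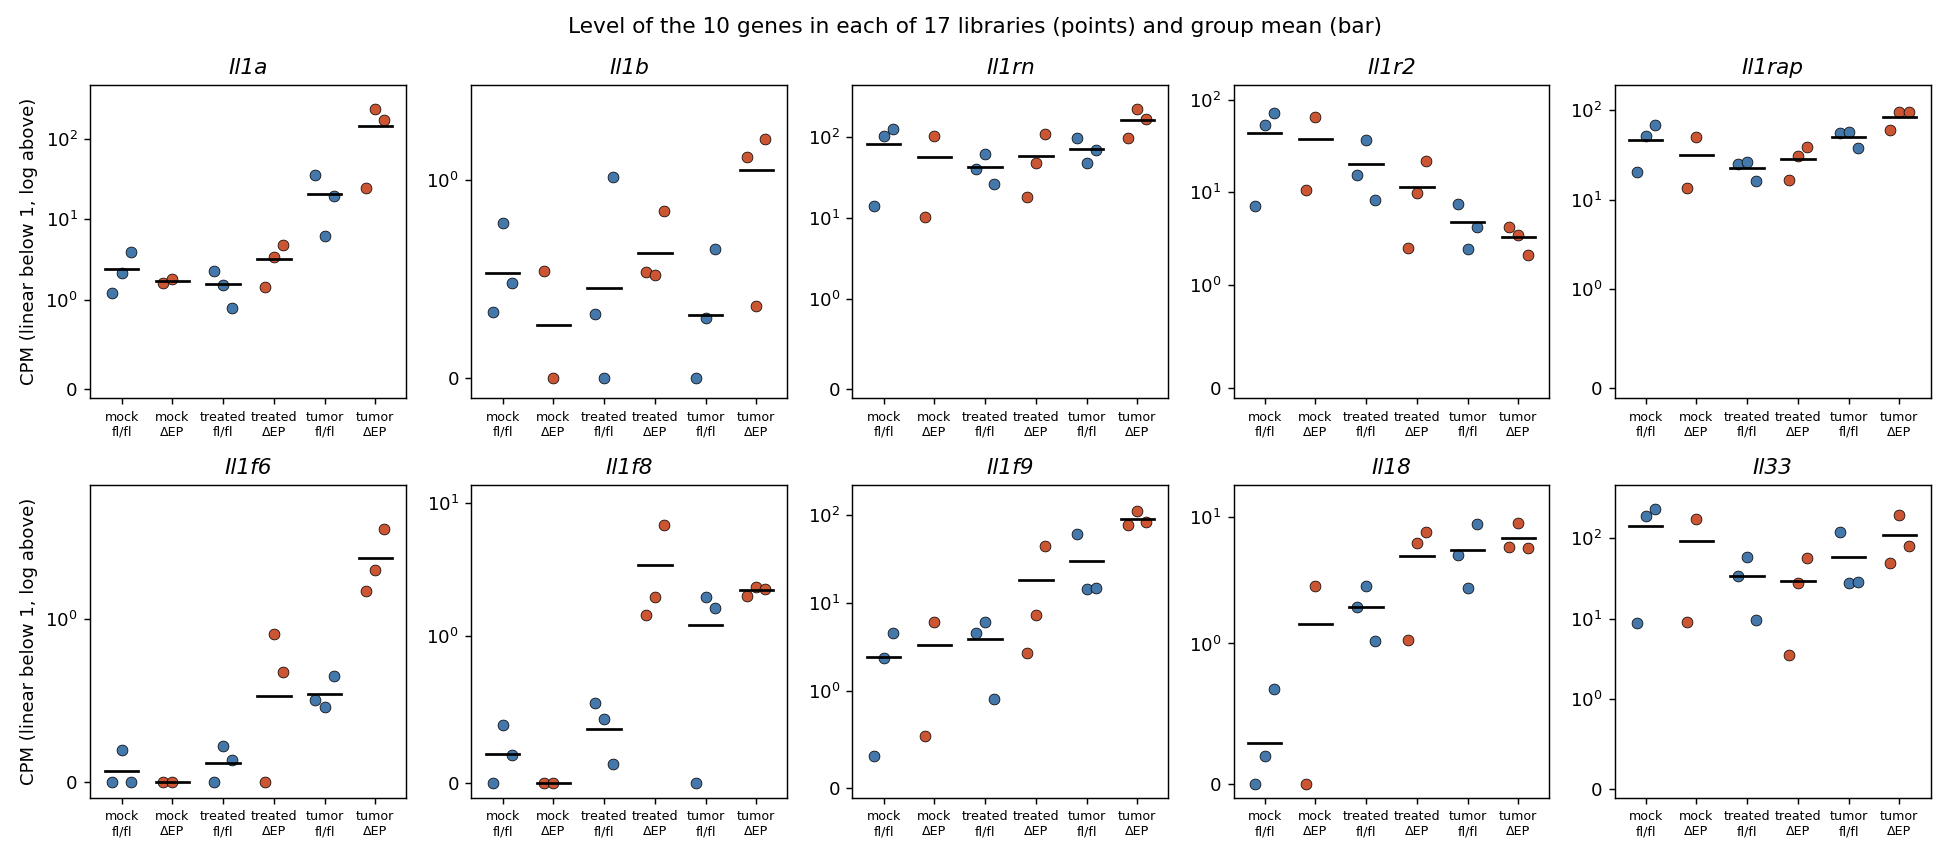
CPM of each gene in each of the 17 libraries (points; blue fl/fl, orange ΔEP) by stage and genotype, with the group mean as a bar, on an axis that is linear below 1 CPM and logarithmic above. Il1a and Il1f9 reach their highest values in ΔEP tumors (24.6 to 232 CPM and 78.6 to 112 CPM), Il1r2 is lowest in tumors (2.09 to 7.51 CPM), and Il1b stays below 2 CPM throughout.

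Among the agonists, Il1a reached the highest level, 232 CPM. In mock fl/fl cells its 3 libraries held 1.22, 2.15 and 3.86 CPM, and in mock ΔEP cells they held 1.62 and 1.80 CPM. Treated fl/fl libraries were at 2.27, 1.53 and 0.911 CPM and treated ΔEP libraries at 1.43, 3.38 and 4.72 CPM. Tumor fl/fl libraries were at 35.1, 6.24 and 19.6 CPM and tumor ΔEP libraries at 24.6, 232 and 171 CPM. Every tumor library was thus above every mock and treated library, and ΔEP tumor replicate 1 lay within the fl/fl tumor range while replicates 2 and 3 were far above it. In counts, the lowest tumor library held 41 and the highest 1283, against at most 40 in any mock or treated library.

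Il1f9, which encodes IL-36γ, was the only IL-36 cytokine well above zero. It was at 0.332, 2.35 and 4.53 CPM in mock fl/fl and 0.540 and 6.11 CPM in mock ΔEP cells, and at 4.54, 6.12 and 0.911 CPM in treated fl/fl cells. Treated ΔEP libraries held 2.68, 7.28 and 45.2 CPM, so that 1 library of the 3 stood apart. Tumor fl/fl libraries held 61.1, 14.6 and 14.7 CPM and tumor ΔEP libraries 78.6, 112 and 83.6 CPM, without overlap between the genotypes. Treated ΔEP replicate 3 also had the highest summed level of differentiated keratinocyte markers in treated skin, 9923 CPM, and the part of this in its Il1f9 level was not tested.

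The other IL-36 agonists were rare transcripts. Il1f6 (IL-36α) had 0 or 1 count in every mock and treated fl/fl library, 0, 7 and 4 counts in treated ΔEP cells, 1, 3 and 2 in tumor fl/fl cells and 7, 12 and 22 in tumor ΔEP cells. Its mean was 0.537 ± 0.103 CPM in tumors of fl/fl mice and 2.64 ± 1.36 CPM in those of ΔEP mice (n = 3 each), and the groups did not overlap. Il1f8 (IL-36β) had 0 to 2 counts in mock libraries and 5, 2 and 1 in treated fl/fl libraries. In treated ΔEP cells it had 8, 15 and 41 counts, that is 1.43, 1.95 and 6.91 CPM, all above the treated fl/fl range of 0.130 to 0.541 CPM. Tumor fl/fl cells had 0, 13 and 5 counts and tumor ΔEP cells 9, 13 and 12.

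Il1b remained at the edge of detection at every stage. Its means were 0.532 ± 0.229 CPM in mock fl/fl, 0.455 ± 0.533 CPM in treated fl/fl and 0.633 ± 0.182 CPM in treated ΔEP cells, and the largest was 1.14 ± 0.695 CPM in ΔEP tumors (n = 3 each). ΔEP tumors held 6, 2 and 9 counts and fl/fl tumors 0, 2 and 2, so that the groups overlapped and a difference was not detectable at this depth. Il1b is known as a product of myeloid cells, and over the list of 15 leukocyte markers the group means ran up to 6.54 CPM. The highest were those of the macrophage markers Cd68 (2.68 to 6.54 CPM) and Csf1r (2.56 to 4.06 CPM), which were above Il1b in every group. The other 13 markers had group means of at most 1.97 CPM. Of the myeloid genes among them, Fcer1g, Adgre1, Csf3r and Ly6g were below Il1b in every group. Itgam, Itgax, Lyz2, Tyrobp and Cd207 were above it in some groups and below it in others. The part of such cells in the Il1b counts was not tested.

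Il18 and Il33 had different profiles. Il18 was at 0, 0.196 and 0.675 CPM in mock fl/fl cells, at 1.95, 2.84 and 1.04 CPM in treated fl/fl cells and at 5.01, 2.74 and 8.82 CPM in fl/fl tumors. In ΔEP cells it was at 0 and 2.87 CPM in mock skin, 1.07, 6.24 and 7.59 CPM in treated skin and 5.80, 9.05 and 5.69 CPM in tumors. In each genotype every tumor library lay above every mock library, and treated libraries overlapped the tumors.

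Il33 was at 8.85, 189 and 230 CPM in mock fl/fl cells and at 9.17 and 174 CPM in mock ΔEP cells. Mock replicate 1 of both genotypes was low, as it was for keratinocyte markers in general and for differentiation markers. Il1rn and Il1r2 were low in the same libraries. Treated libraries ranged from 3.58 to 57.5 CPM and tumor libraries from 28.0 to 194 CPM, so that all 3 stages overlapped. In bulk samples, fewer cells of a type and less RNA per cell cannot be told apart. The part of keratinocyte content, differentiated cells included, in these values was not tested.

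Of the proteins that oppose or relay IL-1, the antagonist gene Il1rn was abundant throughout. It was at 14.2, 104 and 129 CPM in mock fl/fl, 10.3 and 104 CPM in mock ΔEP, 41.2, 62.1 and 26.3 CPM in treated fl/fl and 18.2, 48.9 and 110 CPM in treated ΔEP cells. Tumor fl/fl libraries held 97.2, 48.2 and 69.6 CPM and tumor ΔEP libraries 97.5, 223 and 169 CPM. The ΔEP tumors lay above the fl/fl tumors, although the nearest libraries, 97.2 and 97.5 CPM, were almost level.

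Il1r2, the decoy receptor, was lowest in tumors. Mock fl/fl libraries held 7.08, 52.8 and 72.1 CPM, and the mock ΔEP libraries 10.5 and 65.4 CPM. Treated fl/fl libraries held 15.3, 36.7 and 8.33 CPM, and treated ΔEP libraries 2.5, 9.74 and 21.9 CPM. Tumors of fl/fl mice were at 7.51, 2.44 and 4.25 CPM and those of ΔEP mice at 4.24, 3.44 and 2.09 CPM, from only 11 to 19 counts. Fl/fl tumors were below every treated fl/fl library, and ΔEP tumors overlapped the treated ΔEP group.

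The accessory chain gene Il1rap varied least. Its means were 46.3 ± 23.9 CPM in mock fl/fl, 22.4 ± 5.43 CPM in treated fl/fl and 50.3 ± 10.6 CPM in tumor fl/fl cells (n = 3 each), and 31.9 ± 26.0 CPM (n = 2), 28.7 ± 11.5 CPM and 83.3 ± 20.7 CPM (n = 3 each) in the ΔEP groups of the same stages. The lowest fl/fl tumor (38.2 CPM) was above the highest treated fl/fl library (26.0 CPM), and the lowest ΔEP tumor (59.4 CPM) above the highest treated ΔEP library (39.1 CPM).

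The question of the genotype comparison was whether loss of TTP changes these transcripts at each stage. A gene was called when edgeR's quasi-likelihood test gave an adjusted p under 0.05 with a fold change over 2, over all genes tested. In mock skin 0 of 6 tested members were called, against 0% of 15920 genes, and 0 had an unadjusted p under 0.05, as 253 of all genes did. In treated skin 0 of 7 were called, against 0.00616% of 16232 genes, and 0 had an unadjusted p under 0.05, as 901 of all genes did. In tumors 0 of 8 were called, against 0.0284% of 14067 genes, and 4 had an unadjusted p under 0.05, as did 1975 of all genes. DESeq2 called 0, 0 and 1 members in the 3 stages, the 1 being Il1a in tumors (adjusted p = 0.0132), and 3, 36 and 368 genes in all. The exact test of edgeR called 0 members in each, and 2, 44 and 328 genes in all.

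The fitted values in tumors were nevertheless uneven. Il1a was 6.69-fold higher in ΔEP than in fl/fl tumors (log2 fold change 2.74 ± 0.835, SE; adjusted p = 0.25 by edgeR). Il1f9 was 2.88-fold higher (1.53 ± 0.529; adjusted p = 0.271) and Il1rn 2.08-fold higher (1.06 ± 0.350; adjusted p = 0.262). Il1rap had a log2 fold change of 0.59 ± 0.253 with an adjusted p of 0.352 in the same fit. The remaining tested members had log2 fold changes of 0.78 ± 0.663 for Il33, 0.50 ± 0.650 for Il1f8, 0.21 ± 0.480 for Il18 and -0.58 ± 0.515 for Il1r2.

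Of the 10 members, 5 had every ΔEP tumor library above every fl/fl tumor library: Il1rn, Il1f6, Il1f8, Il1f9 and Il1rap. This was so for 13.7% of all genes tested, and Il1f6 was not among the genes tested. For Il1f8 and Il1rap the separation was narrow and depended on TMM scaling. The lowest ΔEP and highest fl/fl tumor libraries held 2.01 and 1.98 CPM of Il1f8, but 1.66 and 1.88 CPM on raw totals. For Il1rap they held 59.4 and 57.7 CPM, but on raw totals the lowest ΔEP library was at 49.2 CPM and the highest fl/fl library at 54.7 CPM. The median log2 fold change of the 8 tested members was 0.68 and that of all genes tested -0.02. Without fl/fl tumor replicate 1, the library with the lowest total and the highest fl/fl level of Il1a, Il1f9, Il1rn and Il33, edgeR called 5 members and 2613 genes in all. The members were Il1a (3.45, adjusted p = 0.0158), Il1f9 (2.53, adjusted p = 0.00013), Il33 (1.81, adjusted p = 0.0236), Il1rn (1.36, adjusted p = 0.0134) and Il1f6 (adjusted p = 0.0465, with no fold given at 3 and 2 counts in the fl/fl libraries left). The summed level of keratinocyte markers was 37650 CPM in this library, 12040 and 11720 CPM in the other fl/fl tumors and 30700 to 32090 CPM in the ΔEP tumors, so that without it the fl/fl tumors were all low in these markers and the ΔEP tumors all high, and the part of this in the calls was not tested. With the library kept, edgeR without a low-count filter called 3 members (Il1a, Il1rn and Il1f9) and 1393 genes in all.

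In treated skin the largest fitted value was that of Il1f9, 4.78-fold (log2 fold change 2.26 ± 0.997, adjusted p = 0.899), and it was 0.46 without treated ΔEP replicate 3. Il18 had a log2 fold change of 1.39 ± 0.657 (adjusted p = 0.904) and Il1a of 0.97 ± 0.521 (adjusted p = 0.904). In mock skin the 6 tested members had log2 fold changes between -0.60 ± 1.55 for Il33 and 0.46 ± 1.29 for Il1f9, each smaller than its standard error, and adjusted p was 1 for all 6.

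**Figure D3:**
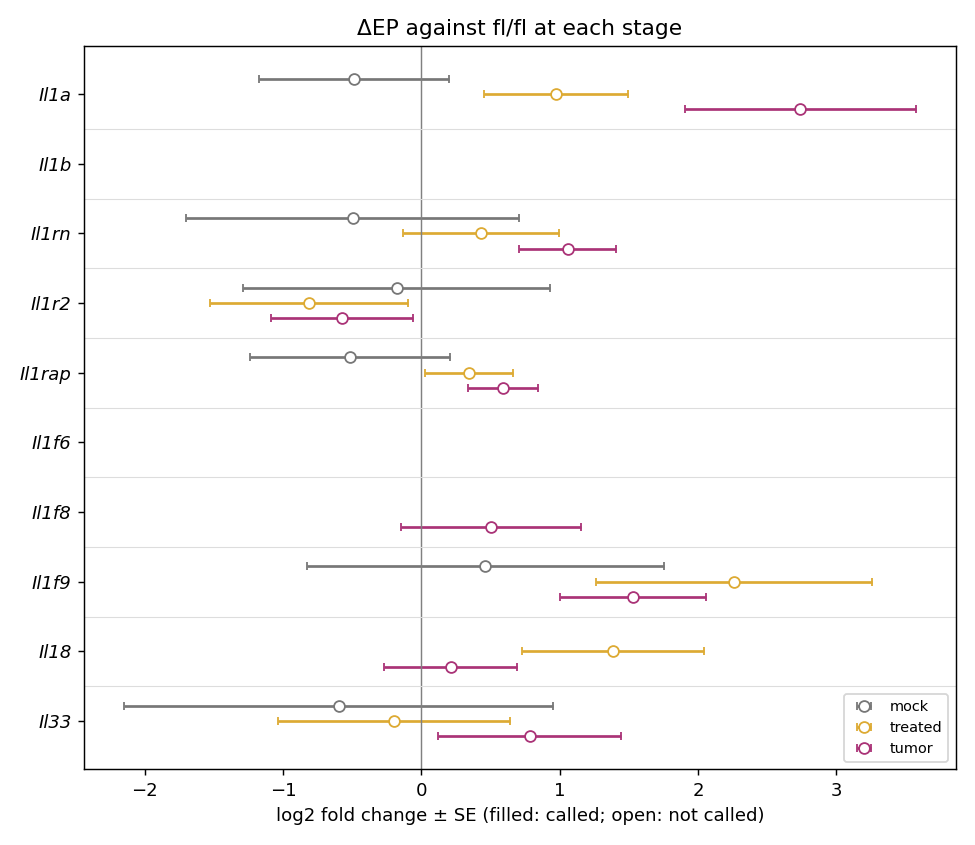
Fitted log2 fold change of ΔEP against fl/fl cells (points, with bars of 1 SE) for each tested member in mock (grey), treated (yellow) and tumor (purple) libraries. Filled points would be called, and none is; Il1a in tumors (2.74) and Il1f9 in treated skin (2.26) lie farthest from 0.

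The comparison of stages asked how these transcripts differ between mock skin, chronically treated skin and tumors of 1 genotype. No member was called between treated and mock skin, that is 0 of 6 tested members were called in fl/fl cells, against 0% of 16601 genes, and 0 of 8 in ΔEP cells, against 0% of 15891 genes. At an unadjusted p under 0.05 the counts were 0 and 1, against 913 and 763 of all genes. DESeq2 and edgeR's exact test called 0 members in each, and of all genes 118 and 105 in fl/fl and 61 and 53 in ΔEP cells. The lowest fitted value in fl/fl cells was that of Il33, with a log2 fold change of -2.06 ± 1.11 (adjusted p = 0.888), against -1.64 ± 1.28 in ΔEP cells (adjusted p = 1). Without fl/fl mock replicate 1, 4 members, and 2587 genes in all, were called between treated and mock fl/fl skin. The 4 were lower in treated skin, namely Il33 (-2.63), Il1r2 (-1.66), Il1rn (-1.42) and Il1rap (-1.38). The mock library left out was low in keratinocyte markers (5786 CPM), and the part of this in the calls was not tested. The ΔEP member with the unadjusted p under 0.05 was Il1f8 (adjusted p = 0.792), for which no fold is given because both mock ΔEP libraries held 0 counts.

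Tumors differed from treated skin in several members. In fl/fl cells 4 of 7 tested members were called, against 18% of 15362 genes: Il1a rose 11.9-fold (log2 fold change 3.57 ± 0.677, adjusted p = 0.0103), Il1f9 rose 7.60-fold (2.93 ± 0.768, adjusted p = 0.0293), Il1rap rose 2.21-fold (1.14 ± 0.252, adjusted p = 0.0169) and Il1r2 fell by 2.20 on the log2 scale (SE 0.627, adjusted p = 0.0383). In ΔEP cells 3 of 8 were called, against 26% of 15289 genes. Il1a rose 41.0-fold (5.36 ± 0.808, adjusted p = 0.00202), Il1rap rose 2.70-fold (1.43 ± 0.317, adjusted p = 0.00888) and Il1f9 rose 4.77-fold (2.25 ± 0.771, adjusted p = 0.0481). Il1r2 had a log2 fold change of -1.89 ± 0.672 with an adjusted p of 0.0549 there, and Il1rn of 1.38 ± 0.544 with an adjusted p of 0.0761. For Il18 the values were 1.48 ± 0.573 in fl/fl (adjusted p = 0.0932) and 0.36 ± 0.563 in ΔEP cells (adjusted p = 0.65), and for Il33 they were 0.76 ± 0.723 (adjusted p = 0.468) and 1.78 ± 0.785 (adjusted p = 0.107). The medians over tested members were 1.14 in fl/fl and 1.41 in ΔEP cells, against -0.02 and -0.03 over all genes tested. Keratinocyte markers summed to 5182 to 17920 CPM in treated ΔEP libraries and to 30700 to 32090 CPM in ΔEP tumors. In fl/fl cells they summed to 7811 to 14930 CPM in treated skin and 11720 to 37650 CPM in tumors. The part of this in the changes above was not tested.

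Il1a stayed called for tumor against treated skin under all 12 alternatives in each genotype, each library left out in turn among them, with log2 fold changes from 2.92 to 4.05 in fl/fl and from 4.85 to 5.89 in ΔEP cells. Il1rap was called in 8 of 12 alternatives in fl/fl cells and in 12 of 12 in ΔEP cells. Il1f9 was called in 8 of 12 and 6 of 12, and Il1r2 in 6 of 12 and 4 of 12. Single libraries set the number of members called: in fl/fl cells it was 1 without treated replicate 1 or 2 and 2 without treated replicate 3 (1106, 1497 and 1517 genes in all), and in ΔEP cells it was 5 without treated replicate 3 (4773 genes in all). They also moved the values. In ΔEP cells the log2 fold change of Il1f9 was 4.05 without treated replicate 3, the library at 45.2 CPM, and 1.77 without treated replicate 1. In fl/fl cells that of Il1f9 was 1.96 without tumor replicate 1, and that of Il1r2 was -1.45 without treated replicate 2. For Il1a the lowest value, 2.92, was that without fl/fl tumor replicate 1.

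Against mock skin the pattern was similar, but fewer members passed the test. In fl/fl cells 0 of 7 tested members were called, against 4.11% of 15394 genes, while 4 had an unadjusted p under 0.05, as did 4038 of all genes. These 4 were Il18 (log2 fold change 4.01 ± 0.962, adjusted p = 0.0588), Il1a (2.99 ± 0.724, adjusted p = 0.0598), Il1r2 (-3.32 ± 0.858, adjusted p = 0.0682) and Il1f9 (3.56 ± 0.941, adjusted p = 0.0709). DESeq2, edgeR's exact test and edgeR without fl/fl mock replicate 1 each called 4 members, and 2201, 2007 and 3277 genes in all. In ΔEP cells 3 of 7 were called, against 14.3% of 15027 genes: Il1a rose 76.7-fold (6.26 ± 1.13, adjusted p = 0.0205), Il1f9 rose 27.2-fold (4.76 ± 0.772, adjusted p = 0.0165) and Il1r2 fell by 3.62 on the log2 scale (SE 0.752, adjusted p = 0.0287). With only 2 mock ΔEP libraries, the number called was 9 without replicate 2 and 5 without replicate 1 of that group (3585 and 4573 genes in all), 1 without ΔEP tumor replicate 1 (406 genes), and 0 without ΔEP tumor replicate 2 or 3 (101 and 216 genes). The log2 fold change of Il1f9 was 7.33 without mock ΔEP replicate 2 and 3.86 without replicate 1. That of Il1r2 was -1.70 without replicate 2 and -4.36 without replicate 1, and that of Il1a was 5.70 without ΔEP tumor replicate 2 and 6.77 without ΔEP tumor replicate 1. The tumor comparisons with mock and with treated skin share their tumor libraries and are not independent. Keratinocyte markers summed to 5786 to 26030 CPM in mock fl/fl and to 6310 and 20820 CPM in mock ΔEP libraries. The part of keratinocyte content in the changes from mock skin to tumors was not tested.

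**Figure D4:**
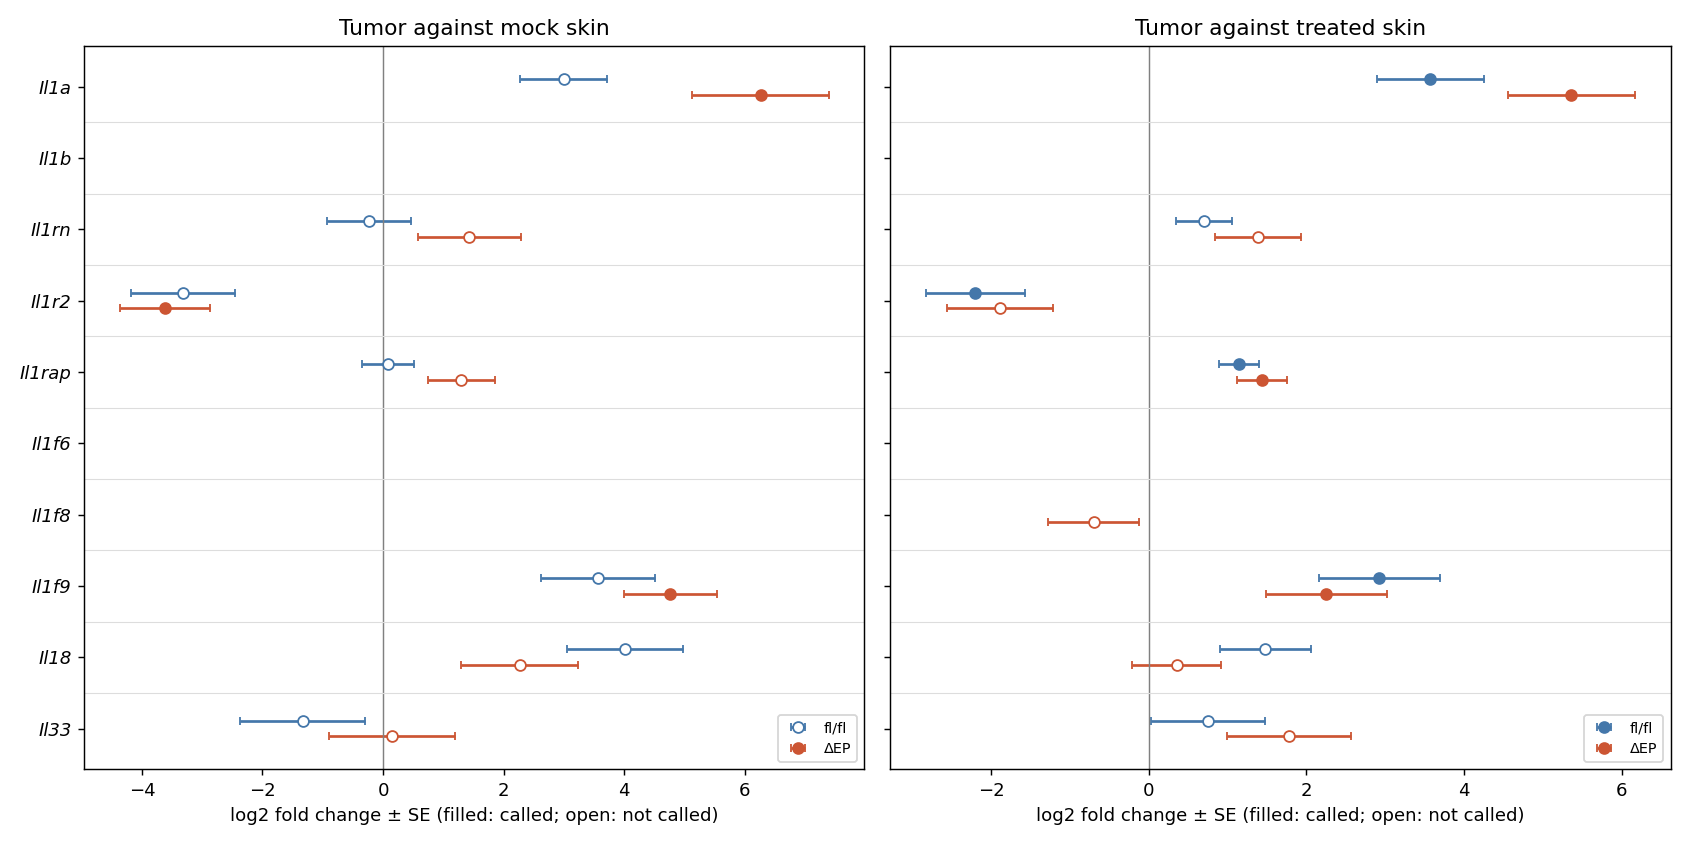
Fitted log2 fold change (points, with bars of 1 SE) of tumor against mock skin (left) and of tumor against treated skin (right) in fl/fl (blue) and ΔEP cells (orange), filled where called and open where not; members not tested have no point. Il1a and Il1f9 lie to the right of 0 and Il1r2 to the left in all 4 comparisons.

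Whether a stage changed a member by a different amount in ΔEP than in fl/fl cells was tested as an interaction. For treated against mock skin 0 of 8 members were called (0% of 17694 genes), for tumor against mock skin 0 of 8 (0% of 17388 genes), and for tumor against treated skin 0 of 8 (0.0118% of 17017 genes), and in each 1 member had an unadjusted p under 0.05, as did 257, 1423 and 2243 of all genes. DESeq2 called 0 members in each and 0, 28 and 206 genes in all. For Il1a the log2 fold change from mock skin to tumor was greater in ΔEP cells by 3.29 ± 1.34 (adjusted p = 0.593 by edgeR), and that from treated skin to tumor by 1.84 ± 1.17 (adjusted p = 0.525). Il1f8 was the member with the unadjusted p under 0.05 in the other two, with an adjusted p of 1 for treated against mock skin, where mock ΔEP cells held 0 counts, and an interaction value of -2.52 ± 1.09 (adjusted p = 0.352 by edgeR) for tumor against treated skin. A different response of the genotypes was therefore not shown for any member.

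The ratio of a pair of genes within a library needs no scaling for depth, so the balance of agonist and inhibitor transcripts was also described per kilobase. Il1a was 0.0580 to 0.241 times Il1rn in mock fl/fl, 0.443 and 0.0487 times in mock ΔEP, 0.0691 to 0.155 times in treated fl/fl and 0.121 to 0.22 times in treated ΔEP cells. In fl/fl tumors the ratio was 1.01, 0.363 and 0.790, and in ΔEP tumors it was 0.706, 2.92 and 2.84. The highest nontumor ratio, 0.443 in mock ΔEP replicate 1, was above that of fl/fl tumor replicate 2, so tumor and nontumor libraries overlapped. The level of Il1a per kilobase was above that of Il1rn in 3 of 6 tumor libraries and in 0 of the 11 mock and treated libraries. This depends on the lengths used, which join the exons of all annotated transcripts, 1974 bases for Il1a and 5535 for Il1rn. In counts, Il1a and Il1rn had 70 and 194 in fl/fl tumor replicate 1. They had 1283 and 1230 in ΔEP tumor replicate 2, and 900 and 890 in ΔEP tumor replicate 3.

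Against the decoy receptor the ratio spanned a wider range. The ratio of Il1a to Il1r2 was 0.0266 to 0.552 in the mock and treated libraries, 4.51, 2.48 and 4.46 in fl/fl tumors and 5.60, 65.3 and 79.1 in ΔEP tumors. On the log2 scale the mean in tumors was 5.44 above treated skin in fl/fl and 6.51 above treated skin in ΔEP cells, and ΔEP tumors were 3.06 above fl/fl tumors. The groups did not overlap in these 3 comparisons, for each of which the exact permutation test (two-sided) gave p = 0.1, the smallest p that 3 libraries against 3 allow, and an adjusted p of 0.150 over the 27 ratio tests made. The ratio of Il1f9 to Il1rn was 0.0758 to 0.198 in mock cells, 0.710 to 2.11 in fl/fl tumors and 1.66 to 2.71 in ΔEP tumors, and in treated skin it was 0.116 to 0.370 in fl/fl and 0.494 to 1.38 in ΔEP cells.

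**Figure D5:**
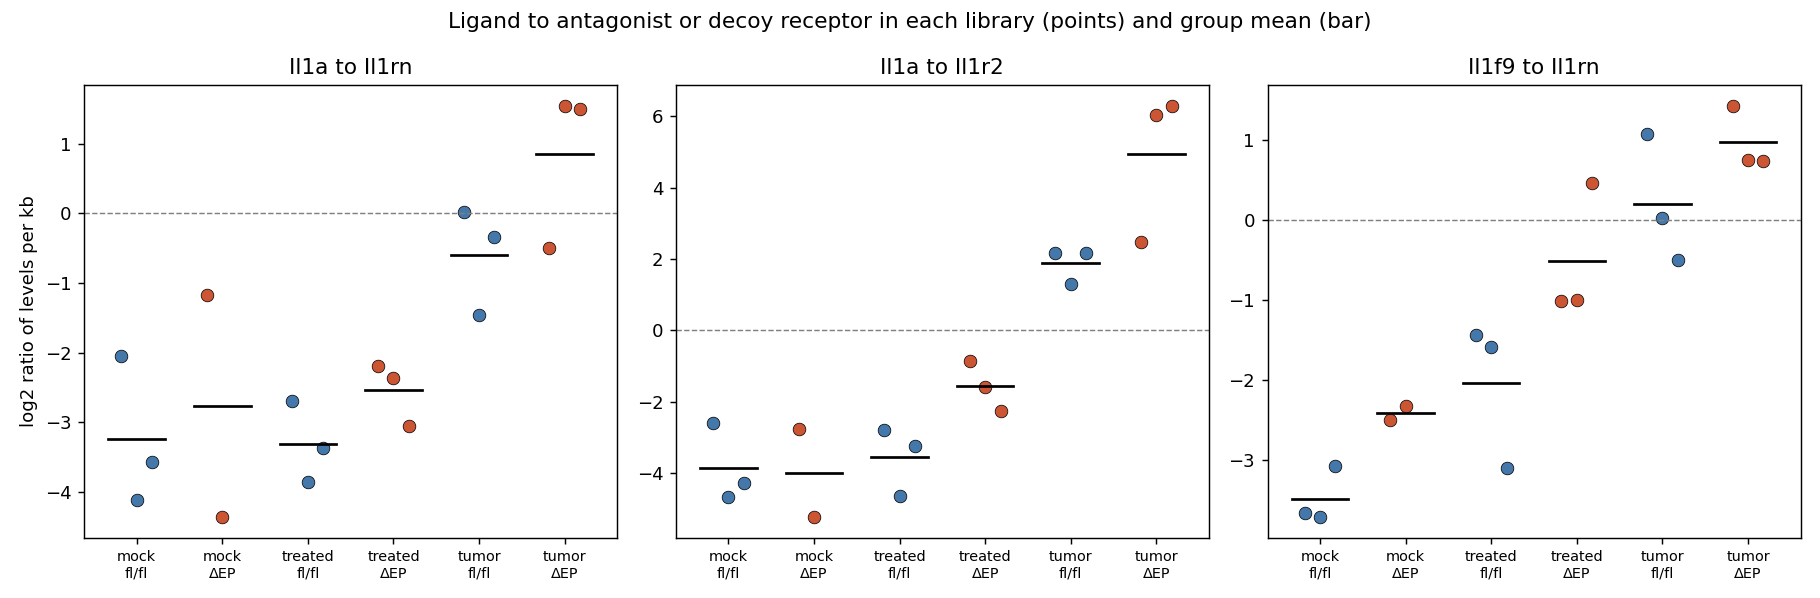
Log2 ratio of levels per kilobase in each library (points; blue fl/fl, orange ΔEP) with the group mean as a bar, for Il1a to Il1rn, Il1a to Il1r2 and Il1f9 to Il1rn; the dashed line marks equal levels. All 6 tumor libraries lie above 0 for Il1a to Il1r2, and all mock and treated libraries lie below it.

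Other genes of the pathway were read from 5 lists, for tumor against treated skin, where 18% of all genes were called in fl/fl and 26% in ΔEP cells. Of 6 receptor genes, 4 were tested between tumor and treated skin in fl/fl cells and 0 were called. In ΔEP cells all 6 were tested. Il18rap, a chain of the IL-18 receptor, rose from 0.219 CPM in treated skin to 4.04 CPM in tumors (adjusted p = 0.00232 by edgeR). It was not tested in fl/fl cells, where its means were 0.550 and 1.69 CPM. Il1r1, the signalling IL-1 receptor, fell by 1.07 on the log2 scale in ΔEP cells (SE 0.245, adjusted p = 0.0106). Its fall in fl/fl cells was similar but under 2-fold (-0.96 ± 0.231, adjusted p = 0.0223 by edgeR). In fl/fl cells Il1r1 was at 53.0 ± 29.7 CPM in mock skin, 31.9 ± 2.75 CPM in treated skin and 16.5 ± 3.61 CPM in tumors (n = 3 each). In ΔEP cells it was at 25.8 ± 6.17 CPM in treated skin and 13.2 ± 1.12 CPM in tumors (n = 3 each). The IL-36 receptor gene Il1rl2 was at 57.9 and 45.4 CPM in treated skin and tumors of fl/fl mice (adjusted p = 0.259 by edgeR). In those of ΔEP mice it was at 52.2 and 44.0 CPM (adjusted p = 0.497). Il1rl1, the IL-33 receptor, did not exceed a group mean of 6.59 CPM. Among 3 genes of antagonists and binding proteins, 2 fell from treated ΔEP skin to ΔEP tumors. Il1f5, which encodes the IL-36 receptor antagonist, fell by 2.88 on the log2 scale (SE 0.597, adjusted p = 0.00689). Il18bp, which binds IL-18, fell by 1.11 (SE 0.383, adjusted p = 0.0491). In fl/fl cells the edgeR values were -1.83 ± 0.791 for Il1f5 (adjusted p = 0.123) and -0.067 ± 0.512 for Il18bp (adjusted p = 0.935). Il1f10 never exceeded 3 counts.

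Of 9 adaptors and kinases, Irak4, a kinase recruited by the IL-1 receptor, rose from treated skin to tumors in both genotypes (log2 fold change 1.35 ± 0.234, adjusted p = 0.00763 in fl/fl and 1.38 ± 0.226, adjusted p = 0.00262 in ΔEP). Tollip, which binds the receptor complex, was called up in ΔEP cells (1.31 ± 0.224, adjusted p = 0.00324). It also rose in fl/fl cells, by less than 2-fold (0.78 ± 0.200, adjusted p = 0.0272 by edgeR). Of 14 genes of processing and release, 10 were tested between tumor and treated skin in each genotype. Nlrp1b was tested only in fl/fl cells and Gsdmd only in ΔEP cells. In fl/fl cells 3 were called up and 1 down, against 1152 up and 1612 down of all 15362 genes tested. In ΔEP cells 4 were called up and 0 down, against 1608 up and 2365 down of 15289. Capn2, a calpain of the protease family that cleaves pro-IL-1α, and Ctsc, a cathepsin that activates serine proteases, rose in both genotypes (log2 fold changes of 2.13 ± 0.168 and 2.36 ± 0.304 in fl/fl, 1.98 ± 0.349 and 1.97 ± 0.200 in ΔEP). Nlrp10 rose in both (1.05 ± 0.211 and 2.06 ± 0.273). Aim2, a sensor of cytosolic DNA, was called up in ΔEP cells (2.26 ± 0.548) and had a value of 1.29 ± 1.27 in fl/fl cells (adjusted p = 0.481 by edgeR). Nlrp1b, an inflammasome sensor, fell in fl/fl cells from 5.14 CPM to 0 in every tumor library. In ΔEP cells the mean of Nlrp1b was 2.39 CPM in treated skin and 0.324 CPM in tumors. Casp1 had a mean of 6.70 CPM in mock skin, 26.6 CPM in treated skin and 39.0 CPM in tumors of fl/fl mice. In ΔEP mice its means were 7.82, 23.05 and 42.1 CPM. It was called between tumor and mock skin in ΔEP cells (2.35 ± 0.355, adjusted p = 0.0136). In fl/fl cells Casp1 had a value of 2.49 ± 0.618 in that comparison (adjusted p = 0.0632 by edgeR) and was not called. Between tumor and treated skin it was not called in fl/fl (0.485 ± 0.459, adjusted p = 0.464) or ΔEP cells (0.761 ± 0.318, adjusted p = 0.0916).

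The list with the most calls held 17 genes known to respond to IL-1 or IL-36 in epithelium. From treated skin to tumors 8 of 13 tested genes were called up and 0 down in fl/fl cells, against 1152 up and 1612 down of 15362 genes. In ΔEP cells 9 of 15 were called up and 0 down, against 1608 up and 2365 down of 15289 genes. The median log2 fold changes were 3.94 and 2.56, against -0.02 and -0.03 over all genes. Nfkbiz was lower in ΔEP tumors by less than 2-fold (-0.67 ± 0.177, adjusted p = 0.0181 by edgeR) and had a value of 0.745 ± 0.192 in fl/fl cells. Tnfaip3 had values of -0.631 ± 0.405 in fl/fl and -0.284 ± 0.212 in ΔEP cells. Cxcl1, a neutrophil chemokine, rose by 4.24 ± 0.255 on the log2 scale in fl/fl and 4.99 ± 0.507 in ΔEP cells, and Ptgs2, the inducible cyclooxygenase, by 3.94 ± 1.06 and 5.81 ± 0.434. Cxcl2, of the same chemokine family, rose by 6.99 ± 0.836 and 6.78 ± 0.589, Ccl20, another chemokine, by 2.29 ± 0.597 and 2.06 ± 0.527, S100a8 by 6.0 ± 0.561 and 2.56 ± 0.614, and S100a9, its partner in calprotectin, by 6.19 ± 0.722 and 2.85 ± 0.694. Lcn2, an antimicrobial protein, was called up in fl/fl cells (6.40 ± 1.37) and had a value of 1.31 ± 0.519 in ΔEP cells (adjusted p = 0.0772 by edgeR). Cxcl3 and Cxcl5 were called up in ΔEP cells, from 0.215 to 78.1 CPM and from 0.146 to 40.7 CPM. They were not tested in fl/fl cells, where their means went from 0.0795 to 5.18 CPM and from 0 to 6.91 CPM. Csf3, which encodes the growth factor of neutrophils, was at 0.217 CPM in treated and 35.0 CPM in tumor fl/fl cells, and at 0.262 and 408 CPM in ΔEP cells. Between genotypes 0 of 15 tested genes of the list were called in tumors by edgeR, although 8 had an unadjusted p under 0.05 (1975 of all genes), and the median log2 fold change was 1.10. The largest differences were those of Cxcl3 (4.06 ± 0.803, adjusted p = 0.175), S100a9 (3.51 ± 0.523, adjusted p = 0.144) and Csf3 (3.41 ± 0.582, adjusted p = 0.144). Lcn2 had a value of -3.26 ± 1.14 (adjusted p = 0.274) and Nfkbiz of -0.967 ± 0.209 (adjusted p = 0.183). The lists were chosen with results of these libraries known, and many other signals also move these genes.

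The genes whose profile over the 17 libraries was most like that of a member are given as a description, since all share stage and library depth. For Il1a they were Ccng1 (Pearson r = 0.970 on log2 CPM), Mmp1a (0.964) and Slfn2 (0.961). Those of Il1f9 were Krt16, a keratin of activated epidermis (0.962), Tmprss11g (0.962) and Entpd7 (0.962). Il1rn went with Galnt7 (0.974), Col7a1 (0.970) and Arhgap27 (0.970), Il33 with Sema3c (0.964), Gnai1 (0.963) and Pak6 (0.959), and Il1rap with Fam129b (0.972), Erap1 (0.969) and Zc3hav1 (0.966). For Il1r2 the leading gene was Il22ra2, the decoy receptor of IL-22 (0.978), followed by Clca3a2 (0.972) and Gm43240 (0.972). Among the members themselves, Il1rn and Il1rap (0.915), Il1rn and Il33 (0.894), Il1a and Il1f9 (0.864) and Il1f9 and Il18 (0.863) were the most alike, and Il1a and Il1r2 the least, with r = -0.514.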

How the data were processed

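Total RNA libraries (Ovation SoLo kit) were sequenced by the authors, who deposited raw counts per gene for 18 columns. The table is named for featureCounts, whereas the submitters' processing notes name Trimmomatic 0.36, STAR 2.5.3, HTSeq 0.9.1, DESeq2 and mm10. The annotation release, use of strand and treatment of duplicate reads are not given in the sources used here, so overlapping genes are uncertain and precision from counts covers counting error only.

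These deposited counts were tested with edgeR 4.0.16 under R 4.3.3 (filterByExpr, TMM, quasi-likelihood F test, two-sided, Benjamini-Hochberg adjustment over all genes tested). Each of 9 pairwise comparisons used only the libraries compared, and 3 interactions used 4 groups. A call required both a change of over 2-fold and adjusted p below 0.05. Of 52636 gene IDs, 52403 were found in GENCODE M21 (GRCm38), which gave exon lengths and 3′ UTRs. The exon length of a gene joined the exons of all its annotated transcripts. Promoters were those of RefSeq. Correlations used log2 CPM with a prior count of 2 over 18252 genes. The genes most like a member are given for members with a mean of at least 10 CPM in 1 group, and correlations between members for all those that passed the filter. All 10 members are named whatever they showed. For the pathway lists, the genes called between tumor and treated skin are named, with a few examples of level. Members and lists were chosen with earlier results of these data known. Alternatives were DESeq2 1.42.0, edgeR's exact test, 1 fit of all libraries, RLE scaling, no filter, a replicate block, a fit with both identical columns kept, a model term that marks mock replicate 1, CPM on raw totals, and each library left out in turn.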

Additional observations from a re-analysis of the deposited data

How the results depend on the processing

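The number of members called in a comparison kept to its main value under RLE scaling in all 12 comparisons. In tumors, ΔEP against fl/fl, it went from 0 to 1 with DESeq2 and to 3 without a low-count filter, and leaving out libraries gave 0 to 5. In treated skin, ΔEP against fl/fl, and for treated against mock ΔEP skin, it went from 0 to 2 without a filter. For tumor against mock fl/fl skin it went from 0 to 4 with DESeq2, the exact test, 1 fit of all libraries or no filter, and to between 0 and 4 when libraries were left out, the 4 being reached without fl/fl mock replicate 1. For treated against mock fl/fl skin the range was also 0 to 4. Tumor against treated fl/fl skin went from 4 to 1 in 1 fit of all libraries and ranged from 1 to 4 when libraries were left out, with 1 without treated fl/fl replicate 1 or 2 and 2 without replicate 3. Tumor against mock ΔEP skin went from 3 to 8 without a filter and ranged from 0 to 9, where a group of 1 library was assumed to vary like the other. Tumor against treated ΔEP skin went from 3 to 5 with the exact test, to 7 without a filter, and ranged from 2 to 5. The interactions for tumor against mock and tumor against treated skin each went from 0 to 1 without a filter. The cause was not tested.

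Replicate numbers in the labels are shared between groups, but only 9 of 24 same-numbered pairs had deviations correlated over 0.1. All pairs did so for ΔEP against fl/fl in mock skin (0.782 and 0.569) and for treated against mock ΔEP skin (0.569 and 0.141). Every other comparison had a pair at 0.1 or lower. The numbers were not taken to pair the libraries in any comparison. For ΔEP against fl/fl in mock skin, a replicate block called 0 members and 110 genes in all. With a replicate block the count for tumor against treated ΔEP skin was 5 in place of 3, for tumor against treated fl/fl skin 3 in place of 4, and for tumor against mock ΔEP skin 2 in place of 3.

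Low counts limit Il1b and Il1f6, which passed the low-count filter in none of the 12 comparisons, and Il1f8, and with 2 or 3 libraries a group the exact permutation tests of ratios could not go below p = 0.1. Mean levels of Il1f9 and Il1f8 in ΔEP tumors were 72.2 and 1.74 CPM on raw totals, against 91.4 and 2.21 CPM on scaled totals.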
